A study of Homo sapiens with 9 samples.

Results

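The genes described are 10 transcripts that extracellular signal-regulated kinase (ERK) signalling is known to induce, chosen by symbol: the ETS transcription factors ETV1, ETV4 and ETV5, the phosphatases DUSP4, DUSP5 and DUSP6, and the inhibitors SPRY2, SPRY4, SPRED1 and SPRED2. The choice was made with earlier results of these data known. All 10 were rows of the count table, which holds 23368 symbols, and all 10 were among the 13648 genes with enough counts to be tested. RNA was sequenced from A673, an established Ewing sarcoma cell line that carries the EWS-FLI1 fusion, 48 h after reverse transfection with 13 nM siRNA. The groups were a scrambled siRNA and the siRNAs siLRWD1-5 and siLRWD1-6 against LRWD1, with 3 libraries each from 3 independent experiments. All groups were A673 cells grown in the same serum-containing medium with Zeocin and blasticidin S. LRWD1 encodes a protein that binds the origin recognition complex, and the comparison asked how lowering it changed the transcriptome of a Ewing sarcoma line.

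In the RAS-RAF-MEK-ERK cascade, growth factor receptors activate RAS, and the kinases RAF, MEK and ERK then act in turn. Active ERK raises transcription of a set of genes that includes the PEA3 group of ETS factors (ETV1, ETV4 and ETV5), which carry the signal on to further genes, and a set of brakes on the same cascade. Among these brakes, DUSP phosphatases remove the activating phosphates from ERK and related kinases, and SPRY and SPRED proteins act upstream, where SPRED proteins bring the RAS inactivator neurofibromin to the membrane. Transcript levels of these genes are widely used as a readout of ERK activity, although none of the values here measures ERK itself. A673 is known to carry an activating mutation of BRAF besides the fusion.

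The libraries held 11971179 to 15674452 counted reads. LRWD1 had 49.1 to 54.6 CPM (counts scaled to library size by TMM) with scrambled siRNA, 10.4 to 11.3 CPM with siLRWD1-5 and 6.55 to 8.55 CPM with siLRWD1-6, so the siLRWD1-6 libraries had the lowest levels of the target. One control library stood apart: scrambled replicate 2 differed from the other scrambled libraries by a chi-square per gene of 25.10 and 29.62, against 3.05 to 5.69 for every other pair within a group. In it, 25 of 25 mitosis genes were lower than the mean of the other scrambled libraries, with a median log2 difference of -0.74, and 9 of the 10 ETV, DUSP, SPRY and SPRED genes were higher, by a median of 0.33. Mitosis genes summed to 2492 CPM in that library, 4215 and 4304 CPM in the other scrambled libraries, 3120 to 3518 CPM with siLRWD1-5 and 3661 to 3835 CPM with siLRWD1-6. Of 11 Ewing sarcoma markers 10 were expressed enough to be tested. CD99 was not, with 50 counts in a single siLRWD1-5 library and no count in any other library. Why CD99 had so few counts was not tested, and they are not read as its absence from the cells. Of 12 markers of other cell types, 10 stayed under 1 CPM in every library and CD3E and HBB had no count, and the 1 tested was CD68 (mean 34.3 CPM). That list summed to 31.3 to 47.5 CPM with scrambled siRNA, 38.4 to 43.4 CPM with siLRWD1-5 and 28.1 to 28.4 CPM with siLRWD1-6, and its part in the results below was not tested.

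With siLRWD1-5, 7 of the 10 genes fell (ETV1, ETV4, ETV5, DUSP4, SPRY4, SPRED1 and SPRED2) and 0 rose, and the median log2 fold change of the 10 was -0.87. With the replicate number as a block, DUSP5 was called lower too (log2 -0.92, adjusted p = 0.018, edgeR). Over all 13648 genes tested, 20.3% were called lower and 18.5% higher in that comparison, with a median of -0.01. With siLRWD1-6, only ETV4 fell and 0 of the 10 rose, with a median of 0.08, against 7.78% of all tested genes lower and 8.81% higher, with a median of -0.02. Set directly against each other, 7 of the 10 genes were higher with siLRWD1-6 than with siLRWD1-5 (ETV1, ETV5, DUSP4, DUSP5, SPRY4, SPRED1 and SPRED2) and 0 were lower, with a median of 0.90. There, 22.4% of all tested genes were called higher and 20.9% lower, around a median of -0.01. These comparisons share libraries pairwise and are not independent of one another. A gene is said to rise or fall where edgeR gave it an adjusted p under 0.05, with Benjamini-Hochberg adjustment over all tested genes. At an unadjusted p under 0.05 the counts of 0 became 0 higher for siLRWD1-5, 3 higher for siLRWD1-6 (ETV5, SPRED1 and SPRED2) and 0 lower between the siRNAs. DESeq2 gave 0, 1 and 0 and limma-voom 0, 0 and 0 in their place. Values of single libraries are given below in the order of replicates 1 to 3.

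The groups' libraries did not overlap for 8 of the 10 genes with siLRWD1-5 against scrambled (47.8% of all tested genes), for 4 of 10 with siLRWD1-6 against scrambled (33.7%) and for 7 of 10 between the siRNAs (61.0%). The excess over all genes was largest for siLRWD1-5 against scrambled. The 10 genes were chosen with earlier results of these data known, so an excess over all genes is not independent support. RNA was taken from whole cultures, so a lower level in every cell and the loss of a transcript from some of the cells cannot be told apart.

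Leaving out scrambled replicate 2 changed the siLRWD1-6 result. Without it, 6 of the 10 genes were called higher with siLRWD1-6 (ETV5, DUSP4, DUSP5, SPRY2, SPRED1 and SPRED2) and 2 lower (ETV1 and ETV4), with a median of 0.23. The background also rose, to 15.3% of all tested genes higher and 13.3% lower. With siLRWD1-5 the same fit called 7 genes lower and 1, SPRY2, higher, with a median of -0.64, against 25.0% of all tested genes lower and 24.0% higher. This fit keeps the siLRWD1-5 and siLRWD1-6 libraries numbered 2. Across genes, their deviations from their group means correlated with those of scrambled replicate 2 (r = 0.36 and 0.23).

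**Figure D1:**
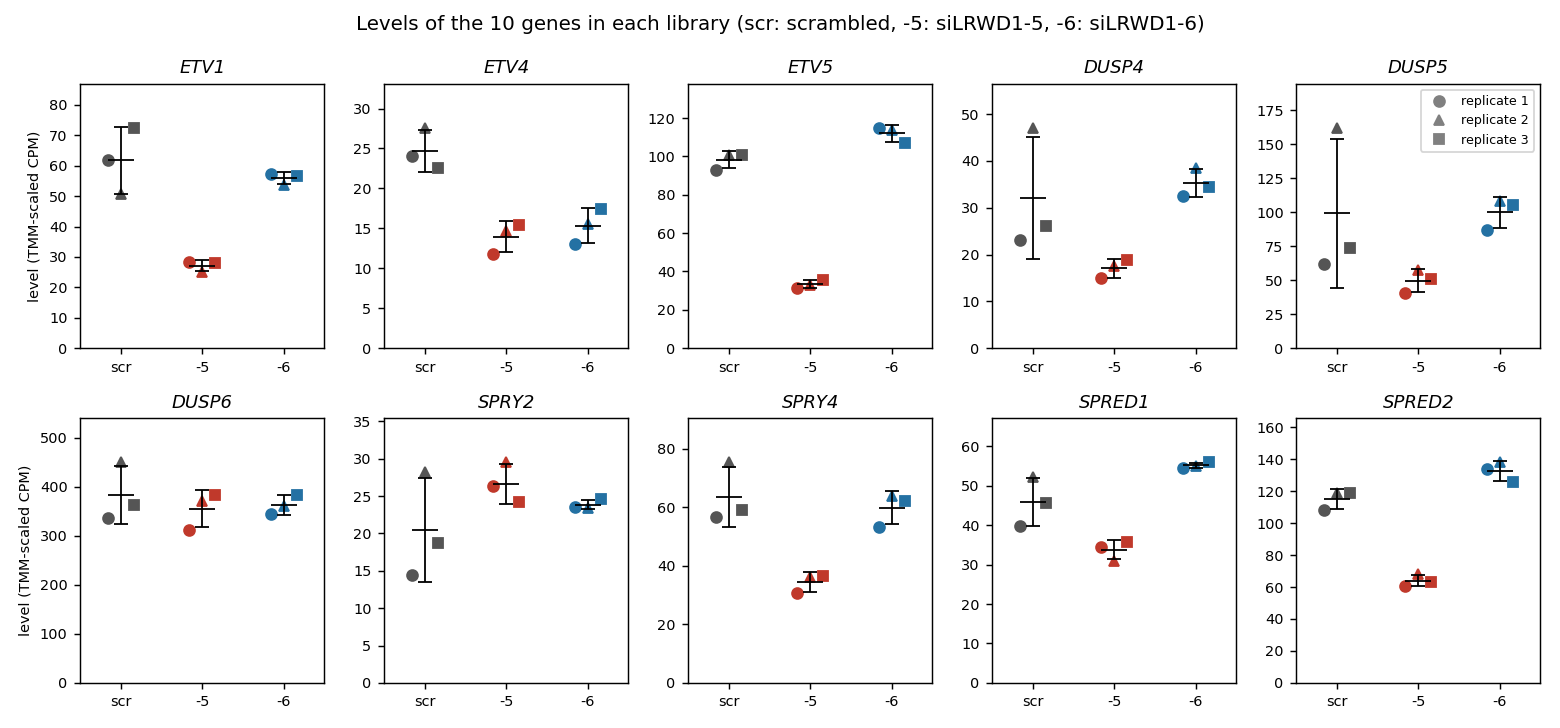
Levels of the 10 genes in TMM-scaled CPM (vertical axes, each starting at 0) in the scrambled (scr), siLRWD1-5 and siLRWD1-6 libraries, left to right; points are libraries, with shapes for replicates 1 to 3, and bars are the mean with its SD. For ETV5 all siLRWD1-5 libraries lie between 31.4 and 35.7 CPM and all others at 93.1 CPM or above, whereas for DUSP6 the groups overlap, and for DUSP4, DUSP5 and SPRY2 scrambled replicate 2 is the highest scrambled library.

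Per kilobase of exon, DUSP6 was the most abundant of the 10 with scrambled siRNA, at 84.3 ± 13.1 CPM per kb (SD, n = 3). DUSP5 followed at 38.8 ± 21.4, then SPRED2 at 27.7 ± 1.53, ETV5 at 22.7 ± 1.05 and SPRY4 at 12.8 ± 2.05 CPM per kb. ETV4 (8.81 ± 0.935), ETV1 (8.01 ± 1.41), SPRY2 (6.74 ± 2.31), SPRED1 (5.89 ± 0.791) and DUSP4 (4.43 ± 1.8) made up the lower end. The libraries of DUSP5 and SPRED2 overlapped, as did those of each pair of neighbours from ETV4 down to DUSP4, so their order is not resolved. DUSP6 lay above DUSP5, SPRED2 above ETV5, ETV5 above SPRY4 and SPRY4 above ETV4 in every scrambled library. With siLRWD1-5, ETV5 was at 7.71 ± 0.5 CPM per kb, which brought it from above SPRY4 and SPRY2 to the levels of those genes there (6.93 ± 0.673 and 8.78 ± 0.879). These lengths come from an annotation of another genome build than the counts, so the order is approximate.

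Promoters were at hand for 6 of the 10 genes (ETV1, DUSP6, SPRY2, SPRY4, SPRED1 and SPRED2), as 14 annotated starts in RefSeq (GRCh38.p14), each 250 bases before to 50 bases after the start. ETV4, ETV5, DUSP4 and DUSP5 had no entry. Motifs of factors that act under ERK were looked for on both strands. The ETS site CCGGAAGT was in 0 of the 14 windows (4.14% of all 35116 promoter windows), the cyclic AMP response element TGACGTCA in 0 (1.85%), the ETS core pair GGAAGGAA in 2 overlapping ETV1 windows (3.67%) and the AP-1 site TGANTCA in 1 SPRED2 window (7.71%). Shown are a window with a match for ETV1 (the other ETV1 match is the same site seen from a start 4 bases away) and for SPRED2, then SPRY4, which fell with siLRWD1-5, and DUSP6, which did not pass in any comparison. Capitals mark the matches, and SPRY4 and DUSP6 have none. The ETV1 window is chr7:13990653-13990952 on the minus strand, with its match at -204 from the start. The SPRED2 window is chr2:65366729-65367028 on the minus strand, another start than the most upstream one, with matches at -6 and 35. The SPRY4 window is chr5:142324198-142324497 and the DUSP6 window chr12:89352452-89352751, both on the minus strand. A match describes these letters only, and no factor's binding was measured.
ETV1: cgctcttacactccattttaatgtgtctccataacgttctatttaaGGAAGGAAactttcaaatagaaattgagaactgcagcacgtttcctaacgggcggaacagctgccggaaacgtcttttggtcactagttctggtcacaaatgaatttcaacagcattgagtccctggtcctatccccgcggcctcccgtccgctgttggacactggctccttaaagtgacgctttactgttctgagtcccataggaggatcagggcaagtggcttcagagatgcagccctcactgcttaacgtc
SPRED2: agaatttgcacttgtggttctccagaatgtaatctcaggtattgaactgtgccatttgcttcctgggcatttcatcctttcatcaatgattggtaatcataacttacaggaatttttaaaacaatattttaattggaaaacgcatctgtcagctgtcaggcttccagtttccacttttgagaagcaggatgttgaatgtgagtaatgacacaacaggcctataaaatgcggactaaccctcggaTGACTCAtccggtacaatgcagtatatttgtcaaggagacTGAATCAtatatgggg
SPRY4: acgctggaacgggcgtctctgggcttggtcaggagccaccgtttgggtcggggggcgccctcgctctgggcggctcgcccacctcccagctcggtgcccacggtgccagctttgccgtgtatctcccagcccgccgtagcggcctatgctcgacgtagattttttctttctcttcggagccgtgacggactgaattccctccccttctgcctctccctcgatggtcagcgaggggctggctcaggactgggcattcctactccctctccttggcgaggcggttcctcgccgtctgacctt
DUSP6: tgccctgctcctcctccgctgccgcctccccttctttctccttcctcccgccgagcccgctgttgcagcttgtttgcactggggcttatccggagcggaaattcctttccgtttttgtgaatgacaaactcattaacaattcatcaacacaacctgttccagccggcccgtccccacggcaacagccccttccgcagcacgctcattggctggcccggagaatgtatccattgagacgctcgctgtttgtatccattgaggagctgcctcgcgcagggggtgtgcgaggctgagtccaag

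All 3 ETV factors fell with siLRWD1-5, and ETV4 alone of them fell with siLRWD1-6. ETV5 stood at 93.1, 101 and 101 CPM under scrambled siRNA, at 31.4, 33.1 and 35.7 CPM under siLRWD1-5, and at 115, 114 and 107 CPM under siLRWD1-6. Its siLRWD1-5 libraries were far below all others, and its siLRWD1-6 libraries all lay above the scrambled ones by a small margin. Under siLRWD1-5, 33.9% of the ETV5 of scrambled libraries was left (log2 -1.56, SE 0.07, adjusted p = 8.2e-08, edgeR), and its log2 fold change with siLRWD1-6 was 0.18 (SE 0.07, adjusted p = 0.084). Directly compared, ETV5 was 3.35-fold higher with siLRWD1-6 than with siLRWD1-5 (log2 1.74, SE 0.07, adjusted p = 2.8e-08, edgeR), the largest difference among the 10 genes. Without scrambled replicate 2, ETV5 passed with siLRWD1-6 (log2 0.22, adjusted p = 0.018, with 0.018 to 0.24 over 18 alternatives).

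ETV1 stood at 62, 50.7 and 72.5 CPM under scrambled siRNA, at 28.3, 25 and 28 CPM under siLRWD1-5, and at 57.4, 53.8 and 56.7 CPM under siLRWD1-6. Its siLRWD1-5 libraries lay below every other library, whereas its siLRWD1-6 libraries fell inside the scrambled range, and scrambled replicate 2 was its lowest control. ETV1 was 2.28-fold lower with siLRWD1-5 (log2 -1.19, SE 0.12, adjusted p = 1.6e-05, edgeR) and had a log2 fold change of -0.14 with siLRWD1-6 (SE 0.11, adjusted p = 0.43). Between the siRNAs it was 2.06-fold higher with siLRWD1-6 (log2 1.05, SE 0.12, adjusted p = 3.1e-05). Without scrambled replicate 2, ETV1 also passed as lower with siLRWD1-6 (log2 -0.25, adjusted p = 0.02, with 0.02 to 0.95 over 18 alternatives).

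ETV4 followed another pattern. It stood at 24, 27.6 and 22.5 CPM under scrambled siRNA, at 11.8, 14.7 and 15.4 CPM under siLRWD1-5, and at 13, 15.6 and 17.4 CPM under siLRWD1-6. Both siRNA groups lay below every scrambled library and overlapped each other. ETV4 was 1.77-fold lower with siLRWD1-5 (log2 -0.83, SE 0.14, adjusted p = 6.4e-04, edgeR) and 1.62-fold lower with siLRWD1-6 (log2 -0.69, SE 0.14, adjusted p = 0.0053). The difference between the siRNAs was 0.13 on the log2 scale (95% interval -0.17 to 0.44, adjusted p = 0.47), an interval that leaves out the differences measured for ETV1 and ETV5. ETV4 was called lower with both siRNAs under each of the 18 alternatives.

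In the GENCODE 29 annotation, exons of ETV5 share 164 bases with the diacylglycerol kinase gene DGKG on the same strand, and exons of ETV4 share 68 bases with the helicase gene DHX8 on the other strand. DGKG also fell with siLRWD1-5, from 54 ± 4.14 to 20.1 ± 0.662 CPM (SD, n = 3; 2.68-fold, edgeR adjusted p = 2.1e-07), and was at 52.9 ± 0.148 CPM with siLRWD1-6. DHX8 did not pass with either siRNA, with log2 fold changes of 0.09 and 0.11. How reads in shared bases were assigned is not given in the sources used here.

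Of the DUSP genes, DUSP4 and DUSP5 had siLRWD1-5 libraries below all others, whereas those of DUSP6 overlapped the other groups. DUSP6, a cytoplasmic phosphatase that acts on ERK, stood at 336, 450 and 364 CPM under scrambled siRNA, at 312, 371 and 383 CPM under siLRWD1-5, and at 345, 361 and 384 CPM under siLRWD1-6. The groups overlapped fully, with scrambled replicate 2 the highest library of all. Its log2 fold changes were -0.11 with siLRWD1-5 (95% interval -0.35 to 0.13, adjusted p = 0.47, edgeR), -0.08 with siLRWD1-6 (-0.32 to 0.17, adjusted p = 0.69) and 0.03 between the siRNAs (-0.21 to 0.27, adjusted p = 0.84). DUSP6 passed in none of the alternatives of any comparison, and without scrambled replicate 2 its values were 0.02 and 0.07 with siLRWD1-5 and siLRWD1-6. The intervals leave out a fall as large as that of ETV1, ETV5 or SPRY4 with siLRWD1-5. In the annotation 1875 bases of DUSP6 exon are shared with an antisense gene, AC024909.2, and without strand its reads would be counted with DUSP6.

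DUSP4, a nuclear phosphatase of ERK and related kinases, stood at 23.1, 47.1 and 26.2 CPM under scrambled siRNA, at 14.9, 17.5 and 18.8 CPM under siLRWD1-5, and at 32.6, 38.5 and 34.5 CPM under siLRWD1-6. The siLRWD1-5 libraries were the lowest, and scrambled replicate 2 lay above all siLRWD1-6 libraries while the other scrambled libraries lay below them. DUSP4 was 1.87-fold lower with siLRWD1-5 (log2 -0.91, SE 0.25, adjusted p = 0.018, edgeR) and had a log2 fold change of 0.14 with siLRWD1-6 (SE 0.24, adjusted p = 0.74). Between the siRNAs it was 2.07-fold higher with siLRWD1-6 (log2 1.05, SE 0.25, adjusted p = 0.0076). The first call was lost without siLRWD1-5 replicate 1 (log2 -0.82, adjusted p = 0.064, with 3.9e-04 to 0.064 over 18 alternatives). Without scrambled replicate 2 the values became -0.53 with siLRWD1-5 and 0.53 with siLRWD1-6 (adjusted p = 4e-04 and 5.3e-04), and adjusted p for siLRWD1-6 ran from 5.3e-04 to 0.98 over the alternatives.

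DUSP5, another nuclear ERK phosphatase, stood at 61.7, 162 and 73.9 CPM under scrambled siRNA, at 40.5, 57.6 and 50.7 CPM under siLRWD1-5, and at 87, 108 and 105 CPM under siLRWD1-6. Scrambled replicate 2 was the highest library, far above the others of its group, and all siLRWD1-5 libraries lay below all scrambled ones. Its difference with siLRWD1-5, 1.99-fold, did not pass (SE 0.35 on the log2 scale, adjusted p = 0.052, edgeR), but it passed with the replicate number as a block (log2 -0.92, SE 0.23, adjusted p = 0.018, with 0.0055 to 0.13 over 18 alternatives, 7 of which called it). With siLRWD1-6 the log2 fold change was 0.02 (SE 0.34, adjusted p = 0.98). Without scrambled replicate 2 it was -0.45 with siLRWD1-5 (adjusted p = 0.052) and 0.57 with siLRWD1-6 (adjusted p = 0.032, with 0.014 to 1 over the alternatives). DUSP5 was 2.01-fold higher with siLRWD1-6 than with siLRWD1-5 (log2 1.01, SE 0.35, adjusted p = 0.045), a call lost in 7 of 18 alternatives: without each of the 6 siRNA libraries in turn (log2 0.88 to 1.14) and with no filter on low counts (log2 1.02).

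SPRY4, SPRED1 and SPRED2 fell with siLRWD1-5 and SPRY2 did not. SPRED2 stood at 108, 119 and 119 CPM under scrambled siRNA, at 60.9, 68.1 and 63.2 CPM under siLRWD1-5, and at 134, 138 and 126 CPM under siLRWD1-6. The 3 groups did not overlap, with siLRWD1-5 lowest and siLRWD1-6 highest. SPRED2 was 1.8-fold lower with siLRWD1-5 (log2 -0.85, SE 0.07, adjusted p = 4.2e-06, edgeR) and 2.08-fold higher with siLRWD1-6 than with siLRWD1-5 (log2 1.05, SE 0.07, adjusted p = 6.8e-07). Its log2 fold change with siLRWD1-6 against scrambled was 0.20 (SE 0.07, adjusted p = 0.062), and 5 of 18 alternatives called it, among them the fit without scrambled replicate 2 (log2 0.24, adjusted p = 0.0097, with 0.0097 to 0.2 over the alternatives).

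SPRED1 stood at 39.8, 52.1 and 45.6 CPM under scrambled siRNA, at 34.5, 31 and 35.7 CPM under siLRWD1-5, and at 54.5, 55.1 and 55.9 CPM under siLRWD1-6. The order of the groups was that of SPRED2, again without overlap, but both differences from the siLRWD1-5 libraries were smaller than those of SPRED2. SPRED1 was 1.36-fold lower with siLRWD1-5 (log2 -0.44, SE 0.10, adjusted p = 0.0043, edgeR) and 1.63-fold higher with siLRWD1-6 than with siLRWD1-5 (log2 0.71, SE 0.10, adjusted p = 1.4e-04). Its value for siLRWD1-6 against scrambled was 0.27 on the log2 scale (SE 0.10, adjusted p = 0.078), and became 0.38 without scrambled replicate 2 (adjusted p = 0.0011, with 0.0011 to 0.23 over 18 alternatives).

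SPRY4, a cytoplasmic inhibitor of receptor-to-RAS signalling, stood at 56.5, 75.3 and 59 CPM under scrambled siRNA, at 30.6, 36.3 and 36.5 CPM under siLRWD1-5, and at 53.3, 63.8 and 62.3 CPM under siLRWD1-6. The siLRWD1-5 libraries lay below all others, and the siLRWD1-6 libraries overlapped the scrambled ones. It was 1.85-fold lower with siLRWD1-5 (log2 -0.88, SE 0.12, adjusted p = 2e-04, edgeR) and 1.74-fold higher with siLRWD1-6 than with siLRWD1-5 (log2 0.80, SE 0.12, adjusted p = 3.2e-04). Against scrambled, its log2 fold change with siLRWD1-6 was -0.09 (95% interval -0.35 to 0.17, adjusted p = 0.67) and was 0.06 without scrambled replicate 2.

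SPRY2, of the same family, stood at 14.5, 28.2 and 18.7 CPM under scrambled siRNA, at 26.3, 29.5 and 24.2 CPM under siLRWD1-5, and at 23.6, 23.4 and 24.6 CPM under siLRWD1-6. Scrambled replicate 2 lay within the range of the siLRWD1-5 libraries, and the other scrambled libraries lay below every siRNA library. The log2 fold changes were 0.39 with siLRWD1-5 (SE 0.20, adjusted p = 0.15, edgeR), 0.23 with siLRWD1-6 (SE 0.20, adjusted p = 0.49) and -0.16 between the siRNAs (95% interval -0.60 to 0.28, adjusted p = 0.54). Without scrambled replicate 2, SPRY2 passed as 1.61-fold higher with siLRWD1-5 (adjusted p = 3.3e-05, with 3.3e-05 to 0.39 over 18 alternatives) and 1.46-fold higher with siLRWD1-6 (adjusted p = 0.0012, with 8.8e-04 to 0.94). SPRY2 therefore moved against SPRY4 with siLRWD1-5 in that fit.

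**Figure D2:**
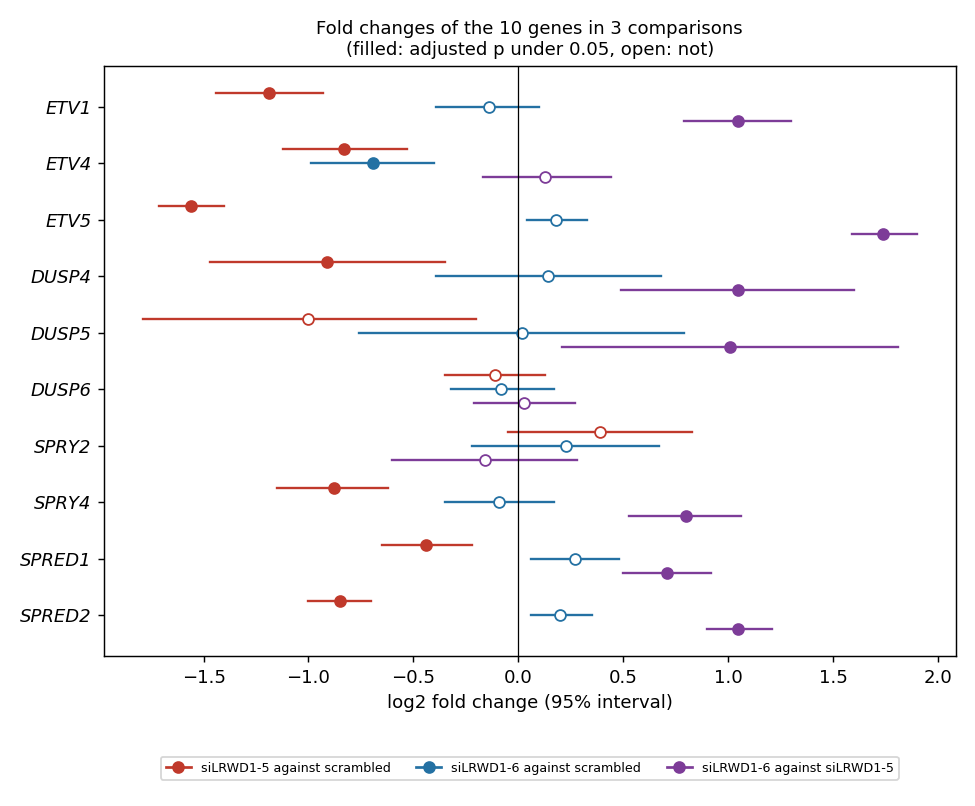
Log2 fold changes (horizontal axis) of the 10 genes (vertical axis) with 95% intervals, for siLRWD1-5 against scrambled (red), siLRWD1-6 against scrambled (blue) and siLRWD1-6 against siLRWD1-5 (purple); filled points have an adjusted p under 0.05. ETV5 has the largest values with siLRWD1-5 (-1.56) and between the siRNAs (1.74), ETV4 is the only gene filled for siLRWD1-6 against scrambled, and DUSP6 and SPRY2 are filled in no comparison.

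**Figure D3:**
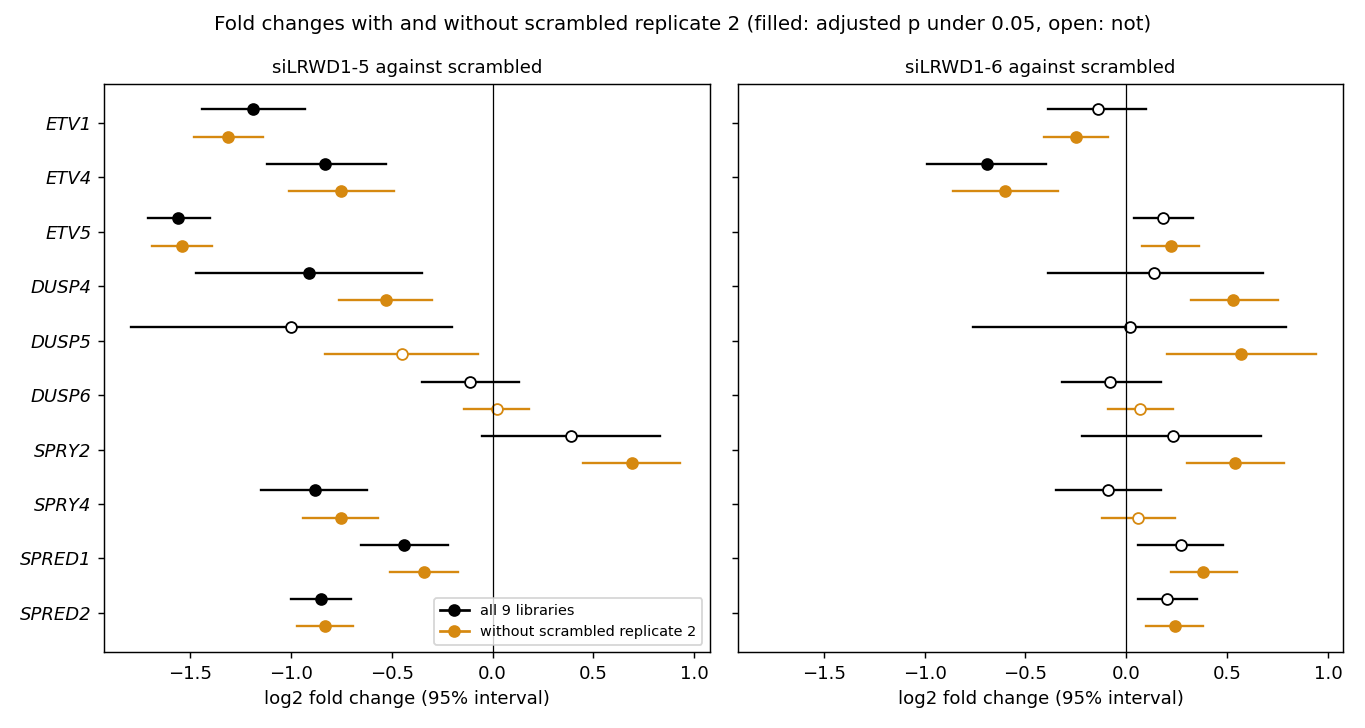
Log2 fold changes with 95% intervals against scrambled for siLRWD1-5 (left) and siLRWD1-6 (right), with all 9 libraries (black) and without scrambled replicate 2 (orange); filled points have an adjusted p under 0.05. On the right, the filled points go from 1 (ETV4) to 8 of 10, and DUSP5 moves most, from 0.02 to 0.57.

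The other pathway lists moved in both directions, as did all tested genes. Of all 13648 tested genes, 18.5% rose and 20.3% fell with siLRWD1-5, and 8.81% rose and 7.78% fell with siLRWD1-6. Between the siRNAs 22.4% were higher with siLRWD1-6 and 20.9% lower. Without scrambled replicate 2, 24.0% rose and 25.0% fell with siLRWD1-5, and 15.3% rose and 13.3% fell with siLRWD1-6. The counts of this list and those below stand beside these shares. Of 11 further SPRY, SPRED and DUSP genes, 9 were tested, and with siLRWD1-5 4 rose and 1 fell. SPRY1, a further Sprouty gene, rose 2.82-fold (adjusted p = 1.3e-04, edgeR), DUSP16, DUSP8 and DUSP9, which encode phosphatases of MAP kinases, had log2 fold changes of 0.84, 0.65 and 1.49, and SPRED3 fell (log2 -1.31, adjusted p = 0.006). In the blocked fit 3 of the list fell, and 2 fell without scrambled replicate 1 or siLRWD1-5 replicate 2. The shares above do not belong to these fits, whose own shares of all tested genes are not given here. With siLRWD1-6, DUSP16 and DUSP8 rose (log2 0.51 and 0.59, adjusted p = 0.0011 and 0.0022) and 0 fell (1 at an unadjusted p under 0.05, 0 by DESeq2 and 1 by limma-voom). Leaving out scrambled replicate 2 gave 3 that rose and 1 that fell. Between the siRNAs, SPRY1 and DUSP9 were lower with siLRWD1-6 (log2 -1.66 and -1.84), as were DUSP16 and DUSP2, and SPRED3 and DUSP7 were higher (log2 1.10 and 0.25). Several of these genes had low levels. With siLRWD1-5 and siLRWD1-6, mean CPM was 0.648 and 0.167 for DUSP2, 3.25 and 0.908 for DUSP9, and 1.24 and 2.67 for SPRED3. SPRY1 had 7.1 and 2.23 CPM, whereas DUSP16 had 71.8 and 56.9 CPM.

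Among 26 other genes known to respond to ERK, 24 were tested. With siLRWD1-5 1 rose and 6 fell (18.5% and 20.3% of all tested genes), with a median log2 fold change of 0.01. Without scrambled replicate 2, 10 rose and 7 fell (24.0% and 25.0% of all tested genes). In the fit blocked on replicate number 4 rose and 8 fell, and 0 rose without scrambled replicate 1, scrambled replicate 3 or siLRWD1-5 replicate 2. Shares of all tested genes that rose or fell in these fits are not given here. The counts are therefore not read as a result about these genes. In scrambled replicate 2, 20 of the 24 were higher than the mean of the other scrambled libraries. The median over all 24 was 0.37. Of all 13648 tested genes, 7109 were higher in that library, with a median of 0.02. ELK3, an ETS factor, fell with siLRWD1-5 (log2 -0.78, adjusted p = 2.8e-06, edgeR), EPHA4, an ephrin receptor, had -0.53 (adjusted p = 5.6e-05), PLAUR, the urokinase receptor, -1.40 (adjusted p = 1.8e-04) and the immediate early factor EGR1 -0.89 (adjusted p = 8.7e-04). Cyclin D1 (CCND1, -0.53) and ETS2 (-0.40) also fell, and the cytokine gene LIF rose (2.51, adjusted p = 0.031). PHLDA1, EPHA2 and MYC, also used as readouts of the cascade, did not pass, with 0.32, -0.02 and 0.16.

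With siLRWD1-6, 5 of these 24 genes rose and 1 fell (8.81% and 7.78% of all tested genes), with a median of 0.05. Without scrambled replicate 2, 9 rose and 1 fell (15.3% and 13.3% of all tested genes). The number that rose was 2 without scrambled replicate 1 or siLRWD1-6 replicate 1 and 1 without siLRWD1-6 replicate 2. ATF3, a stress-induced factor, rose by 0.95 on the log2 scale (adjusted p = 1.9e-05, edgeR), the immediate early factors FOS and EGR1 rose by 1.11 and 0.52 (adjusted p = 0.012 and 0.031), MCL1 by 0.37 and ELK3 by 0.22, and IER2 fell (-0.40). Between the siRNAs 8 were higher with siLRWD1-6 and 2 lower, with a median of 0.15: ELK3 (1.00), ATF3 (1.05), EGR1 (1.41) and FOS (1.88) had the smallest p-values.

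Genes of the cascade itself moved in both directions, as did all tested genes. Of those, 18.5% were higher and 20.3% lower with siLRWD1-5, 8.81% and 7.78% with siLRWD1-6, and 22.4% and 20.9% between the siRNAs. Of 30 tested, 5 rose and 9 fell with siLRWD1-5, with a median of -0.03. The fit without scrambled replicate 2 called 9 higher and 11 lower (24.0% and 25.0% of all tested genes). Of the 30, 3 rose without siLRWD1-5 replicate 3, and 5 fell without siLRWD1-5 replicate 1 or 2. PEBP1, which encodes an inhibitor of RAF, fell (log2 -1.20, adjusted p = 2.5e-07, edgeR), as did SHOC2, a scaffold for RAF activation (-0.74, adjusted p = 1.8e-05), and the RAS GTPase-activating protein gene RASA2 (-1.07, adjusted p = 6.7e-05), and NRAS rose (0.34, adjusted p = 7.8e-04). BRAF and the ERK gene MAPK3 did not pass, with log2 fold changes of -0.03 and 0.10, and the MEK gene MAP2K1 fell (-0.36, adjusted p = 0.021). With siLRWD1-6, 4 rose and 4 fell, with a median of -0.01: the adaptor gene SHC1 (-0.94, adjusted p = 0.0043), SOS2 (0.32), MAPK3 (-0.31) and NF1 (0.28) had the smallest p-values. There were 6 that rose and 5 that fell without scrambled replicate 2 (15.3% and 13.3% of all tested genes). In contrast, 0 rose without siLRWD1-6 replicate 1 or 2, and 1 rose and 1 fell without scrambled replicate 1. NF1, which encodes the RAS inactivator that SPRED proteins recruit, also rose with siLRWD1-5 (0.25, adjusted p = 0.02). Between the siRNAs 8 cascade genes were higher with siLRWD1-6 and 6 lower, with a median of 0.00.

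**Figure D4:**
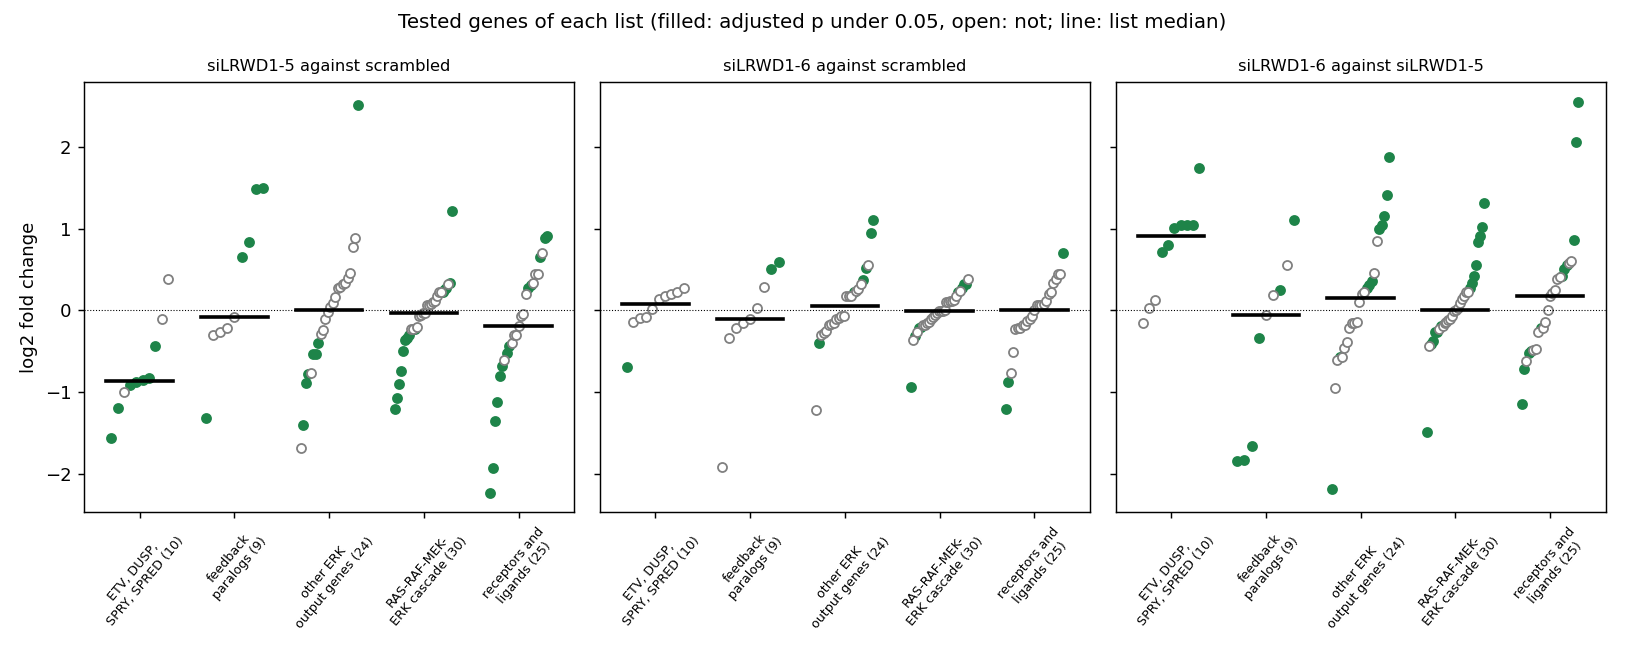
Log2 fold changes (vertical axis) of every tested gene of the 10 described genes and of 4 pathway lists, in the 3 comparisons; filled points have an adjusted p under 0.05 and lines are list medians. The median of the ETV, DUSP, SPRY and SPRED genes is -0.87 with siLRWD1-5 and 0.90 between the siRNAs, while those of the other lists shown lie between -0.19 and 0.17 in all comparisons. The Ewing sarcoma markers, not shown, have medians of -0.53 with siLRWD1-5 and 0.44 between the siRNAs.

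Genes with levels varying most like those of ETV5, DUSP6 and SPRY4 were sought among 10778 genes with a mean of at least 5 CPM. Genes of any list used here, the 10 described genes included, were left out of this search. Likeness was Pearson's r of log2 CPM over the 9 libraries, as a description of libraries that share groups and depth. For ETV5 the most alike were LDB2 (r = 0.998), ASPH (0.997) and ADAM10 (0.997), which encode a LIM-domain binding protein, an aspartate hydroxylase and a membrane metalloproteinase. ASPH had 228 ± 8.38, 80.3 ± 4.43 and 280 ± 6.76 CPM (SD, n = 3) with scrambled siRNA, siLRWD1-5 and siLRWD1-6. For SPRY4 they were the kinase gene MARK2 (0.989), the proton pump subunit gene ATP6V1C1 (0.989) and TMEM192 (0.988), each lowest with siLRWD1-5. For DUSP6 they were MGAT5 (0.965), EFHD2 (0.957) and FLNC (0.947), and FLNC, which encodes a filamin, had 183 ± 94.5, 127 ± 20.6 and 148 ± 33.8 CPM in the 3 groups, with the widest spread among the controls.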

How the data were processed

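RNA sequencing was done on 9 libraries of A673 cells, 3 per siRNA. The authors deposited raw read counts per gene symbol, 1 column per library, without normalization. The submitters' processing notes name build hg19 and the tools TopHat2 2.0.10, HTSeq 0.5.4p3 and bcl2fastq 1.8.4. What annotation, counting mode and strand they used is not given in the sources here.

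Genes passing filterByExpr (13648 of 23368) entered the robust quasi-likelihood test of edgeR 4.0.16 (R 4.3.3) after TMM scaling, fitted on the 9 libraries together with no term but group. The threshold was a Benjamini-Hochberg adjusted p of 0.05 over every tested gene. Standard errors came from the F statistic. The script was tested on simulated data. Alternatives were RLE size factors, library size alone, 2 other filters, DESeq2 1.42.0, limma-voom from limma 3.58.1, a replicate block, fewer groups or libraries, and each library left out.

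Same-numbered libraries deviated together from their group means for siLRWD1-5 and scrambled (r from 0.11 to 0.36 over 3 pairs, across genes). All 3 exceeded 0.1, so the block is read as a pairing there. In that comparison 5 of 6 libraries correlated best with their own number, as for siLRWD1-6 and scrambled. Its values are those of the fit without the block unless the block is named. For the other comparisons not every pair exceeded 0.1, and a pairing is neither adopted nor excluded there. The r ran from 0.05 to 0.28 for siLRWD1-6 and scrambled, and from 0.09 to 0.22 between the siRNAs.

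The members and gene lists were chosen with earlier results of these data known. All members are named, with up to 4 genes per list and comparison by smallest p. Further genes of 3 of the lists are given with their values. Also named are the 3 genes outside the lists most alike to each of ETV5, DUSP6 and SPRY4. A few genes that the rule would name are not reported here. Genes overlapping the members' exons were named after their values were seen. Exon lengths are unions over GENCODE 29 basic transcripts (GRCh38), a build other than that of the counts. Promoters (300 bases, RefSeq, GRCh38.p14) were searched on both strands.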

Additional observations from a re-analysis of the deposited data

How the results depend on the processing

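Of 540 values of single ETV, DUSP, SPRY and SPRED genes under alternatives, 495 kept their direction and side of the threshold, 26 passed it, 8 lost it and 11 changed sign, none of the last being called in either fit; the causes were not tested. Sign changes with siLRWD1-6 were DUSP4 without scrambled replicate 1 (-0.05), DUSP5 without scrambled replicate 1 (-0.24), scrambled replicate 3 (-0.15) or siLRWD1-6 replicate 2 (-0.04), and DUSP6 and SPRY4 with only libraries 1 and 3 (0.07 and 0.01) or without scrambled replicate 2 (0.07 and 0.06). With siLRWD1-5 DUSP6 became 0.02 without scrambled replicate 2, and between the siRNAs -0.04 with library size alone and -0.05 without siLRWD1-5 replicate 1. Called higher with siLRWD1-6 was 1 gene, SPRED2, with a filter of 1 CPM in 3 libraries, DESeq2 or the replicate block (log2 0.20, adjusted p = 0.036), and with only libraries 1 and 3 there were 6 higher and 2 lower, with 3579 of all genes called. With siLRWD1-5 that fit, on libraries 1 and 3, called 1 higher, SPRY2 (log2 0.63, edgeR adjusted p = 7.5e-05). It also called DUSP5 lower (log2 -0.57, edgeR adjusted p = 0.0055). Over the fits without 1 library, the values ran from -0.20 to 0.02 (DUSP6, siLRWD1-5), -0.05 to 0.53, -0.24 to 0.57, -0.16 to 0.07 and -0.17 to 0.06 (DUSP4, DUSP5, DUSP6 and SPRY4, siLRWD1-6) and -0.05 to 0.09 (DUSP6 between the siRNAs). The replicate block changed no call of the 10 genes other than those of DUSP5 and SPRED2, and for siLRWD1-6 each of 5 of 6 libraries correlated best with its own number (6 of 6 between the siRNAs). Leaving out each library gave, for siLRWD1-5, 0 to 1 genes higher and 6 to 8 lower (all genes 4189 to 6790), for siLRWD1-6 0 to 6 higher and 1 to 2 lower (1248 to 3953), and between the siRNAs 6 to 7 higher and 0 lower (4685 to 7551). The lowest count of the 10 genes was 186 (ETV4, siLRWD1-6 replicate 1).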

Other observations

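Growth factor receptors and ligands that feed the cascade were a further list, with 25 of 35 genes tested. With siLRWD1-5 5 rose and 8 fell (18.5% and 20.3% of all tested genes), with a median log2 fold change of -0.19 (edgeR). The ligand gene PDGFC fell (log2 -0.68, adjusted p = 4.3e-05), the growth factor gene FGF2 had -0.80 (adjusted p = 1e-04), its receptor FGFR1 -0.52 (adjusted p = 6.9e-04) and the stem cell factor receptor KIT -2.23 (adjusted p = 8.1e-04). With siLRWD1-6 1 rose and 2 fell (8.81% and 7.78% of all tested genes), with a median of 0.00. Among them were AXL (0.70, adjusted p = 0.025) and PDGFRA (-1.21, adjusted p = 0.011). Without scrambled replicate 2 there were 6 higher and 9 lower with siLRWD1-5, and 3 higher and 8 lower with siLRWD1-6. The shares of all tested genes in that fit were 24.0% and 25.0%, and 15.3% and 13.3%. With siLRWD1-6, 0 were higher without scrambled replicate 1 or scrambled replicate 3, and 0 were lower without siLRWD1-6 replicate 2. With siLRWD1-5, 3 were higher without siLRWD1-5 replicate 1 or siLRWD1-5 replicate 3.

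Of 10 tested Ewing sarcoma markers, 5 fell with siLRWD1-5 and 0 rose (20.3% and 18.5% of all tested genes), with a median of -0.53. With siLRWD1-6 0 were called, with a median of -0.08, against 8.81% of all tested genes higher and 7.78% lower. At an unadjusted p under 0.05, 1 was higher and 2 lower with siLRWD1-6, and DESeq2 and limma-voom called 0. Between the siRNAs 5 were higher with siLRWD1-6 and 0 lower (22.4% and 20.9% of all tested genes), with a median of 0.44. Once scrambled replicate 2 was left out, 2 were higher and 1 lower with siLRWD1-6 (15.3% and 13.3% of all tested genes). In the same fit 0 were higher and 6 lower with siLRWD1-5 (24.0% and 25.0% of all tested genes). FLI1, whose reads include the fusion transcript, had -0.52 with siLRWD1-5 (edgeR adjusted p = 5e-04). With siLRWD1-6 it had 0.22 and did not pass (edgeR adjusted p = 0.082). The EWS-FLI1 targets STEAP1, NR0B1 and NKX2-2 had -0.71, -0.83 and -0.53 with siLRWD1-5 (edgeR adjusted p = 4e-04, 8.5e-04 and 9e-04).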
